A study of Mus musculus with 12 samples.

Results

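Binding of YY1, a zinc-finger transcription factor, was examined at 9 genes that encode the insulator protein CTCF and parts of the cohesin machinery: Ctcf, Smc3, Rad21, Stag1, Nipbl, Mau2, Wapl, Pds5a and Pds5b. They were chosen by name from the GENCODE M21 annotation of the mouse genome build mm10, which lists 21755 protein-coding genes on chromosomes 1 to 19 and X, and peaks were taken from each gene body and from 3 kb to either side of any of its transcript starts. Lineage-depleted (Lin−) bone marrow cells, which keep the stem and progenitor cells of the blood, came from female mice of 3 months on a 129Sv4/Jae x B6 background. YY1 ChIP-seq was done in 2 wild-type (WT) libraries and in 2 libraries from mice homozygous for a blood-specific deletion of Xist (XistΔ/Δ), made by crossing a floxed Xist allele to Vav-iCre, in which sequences of the blood gene Vav1 drive Cre. Whether the WT mice carried Vav-iCre, and how many animals gave each library, is not given in the sources used here. The study calls its ChIP-seq replicates of Lin− cells biological replicates, but the sources used here do not state that each came from separate animals. A p-value is therefore taken to measure only the spread between these libraries.

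CTCF binds DNA at sites across the genome and is known for halting cohesin there. Cohesin is a ring built from a pair of SMC proteins, closed by RAD21 and joined by a STAG subunit, which holds sister chromatids together and extrudes loops of chromatin. NIPBL and MAU2 load the ring onto chromatin, and WAPL together with a PDS5 protein releases it. YY1 itself is known for binding near transcript starts and for holding promoters and enhancers together. Xist RNA spreads over the inactive X chromosome and is required for its silencing. None of the 9 genes lies on the X.

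The files list the peaks of each library. The libraries held 24.9 M (WT replicate 1), 50.0 M (WT replicate 2), 23.1 M (XistΔ/Δ replicate 1) and 59.5 M tags (XistΔ/Δ replicate 2), where a tag is an aligned read as the peak caller counts it. They gave 9553 peaks in WT replicate 1, 15933 in WT replicate 2, 10075 in XistΔ/Δ replicate 1 and 18113 in XistΔ/Δ replicate 2, so the replicate 2 libraries were the deeper and longer lists in both genotypes. The median peak was 777 bp to 925 bp wide, and the most frequent width was 501 bp. Because the lists hold no height for a peak, its width was compared, both in bp and as a percentile among all peaks of the same library, where 100 is the widest. Peaks were called without an input library, and the part of chromatin openness or copy number in them was not tested.

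All 9 genes carried a YY1 peak within 3 kb of a transcript start in all 4 libraries, which was so for 36.0% of protein-coding genes. The promoter peaks were broad. The widest promoter peak of each gene measured 1114 bp to 4067 bp over the 36 values, and its width percentile was 75 or more in all 4 libraries for 9 of 9 genes, against 26.6% of the 7833 genes with a promoter peak in all 4. The 9 genes and the threshold of 75 were chosen with earlier results of these data known, so both counts are descriptions and not independent findings. The lowest value, 75.1 for Pds5b in WT replicate 1, lay just inside the threshold. The median of the genes' mean percentiles was 94.6 for the 9 genes and 69.4 for the 7833, with mean widths of 2212 bp and 1258 bp at the median.

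Promoter sequence came from RefSeq windows on GRCm38.p6, which run from 250 bases before a transcript start to 50 bases after it. Windows were found for 7 of the 9 genes. Rad21 and Nipbl had no entry. The letters AANATGGC, a core of the YY1 motif, were searched on both strands. They occurred in the windows of 4 of 7 genes, Ctcf, Smc3, Stag1 and Pds5b, and in 6.08% of all 32619 windows of this length. In windows that overlapped a YY1 peak in all 4 libraries the share was 13.8% (7369 windows), in those with a peak in 1 to 3 libraries 2.29% (3540 windows), and in those with none 4.09% (21710 windows). The 4 promoters with a match are printed 5′ to 3′ on the gene's strand, from 250 bases before to 30 bases after the RefSeq start. Capitals mark the match, which reads GCCATTTT where the motif lies on the opposite strand.
Ctcf, chr8:105636288-105636567, plus strand: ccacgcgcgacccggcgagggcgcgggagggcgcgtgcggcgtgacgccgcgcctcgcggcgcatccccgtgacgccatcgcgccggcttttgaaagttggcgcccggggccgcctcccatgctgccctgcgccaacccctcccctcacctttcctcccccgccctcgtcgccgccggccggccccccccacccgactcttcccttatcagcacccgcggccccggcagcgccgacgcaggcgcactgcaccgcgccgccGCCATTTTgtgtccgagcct
Smc3, chr19:53600146-53600425, plus strand: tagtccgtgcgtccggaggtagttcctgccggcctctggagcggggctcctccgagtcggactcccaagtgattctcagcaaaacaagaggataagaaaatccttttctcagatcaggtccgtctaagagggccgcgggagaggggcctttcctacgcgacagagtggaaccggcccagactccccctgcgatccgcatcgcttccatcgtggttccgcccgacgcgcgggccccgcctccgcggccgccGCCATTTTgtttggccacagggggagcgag
Stag1, chr9:100643198-100643477, plus strand: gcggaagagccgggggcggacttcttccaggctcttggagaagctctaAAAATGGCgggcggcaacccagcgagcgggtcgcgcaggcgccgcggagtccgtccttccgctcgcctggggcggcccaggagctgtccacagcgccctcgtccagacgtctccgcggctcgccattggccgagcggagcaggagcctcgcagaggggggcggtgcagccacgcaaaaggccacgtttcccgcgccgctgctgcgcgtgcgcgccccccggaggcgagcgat
Pds5b, chr5:150673577-150673856, plus strand: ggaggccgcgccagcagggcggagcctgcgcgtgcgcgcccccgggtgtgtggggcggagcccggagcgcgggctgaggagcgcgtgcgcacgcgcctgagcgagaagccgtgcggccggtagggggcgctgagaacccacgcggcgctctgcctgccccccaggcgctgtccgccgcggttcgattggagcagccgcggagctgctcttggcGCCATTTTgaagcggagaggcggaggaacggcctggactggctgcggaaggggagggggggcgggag

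In all 4 promoters the matched letters were AAAATGGC on the strand of the motif. Positions are counted from the RefSeq start, with 1 as the first transcribed base. The match ran from 11 to 18 in Ctcf and from 1 to 8 in Smc3, both on the opposite strand, and the Smc3 match began at the first transcribed base. In Pds5b it ran from -37 to -30, also on the opposite strand. In Stag1 it lay farther upstream, from -202 to -195, on the gene's own strand. Each of these matches lay within the peaks of all 4 libraries. Counted from the main GENCODE start used for the peaks, where 0 is the first transcribed base, the Ctcf match lay at -31 to -24 and the Pds5b match at 51 to 58.

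The windows of Mau2, Wapl and Pds5a held no match to AANATGGC. The shorter letters ATGGC, which are part of that motif, were found in the window of Wapl (from 35 to 39) and in 40.5% of all windows. The longer form AAGATGGCG was found in none of the 8 windows of the 7 genes and in 1.40% of all windows. When the search was extended to the stretch of genome shared by the promoter peaks of all 4 libraries, 5 of 7 genes had a match. These stretches were longer, at 1114 bp to 2290 bp, and 60.4% of the 2046 shared stretches of that range of length held one, as did 31.1% of all 7314. The share in the 7 genes was thus near that of stretches of like length. The added gene was Mau2, whose shared stretch of 1466 bp held 2 matches to AANATGGC. One of them lay 46 to 54 bases after the main transcript start, across the end of the RefSeq window, and also matched the longer form. That form is in capitals in the following 30 bases.
Mau2, chr8:70042670-70042699, minus strand: ttgtgcgggccAAGATGGCGgcacaggcgg

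A match in these letters is a description of sequence and was not tested as a binding site. Mau2 had 2 RefSeq windows, so the 7 genes had 8 in all. The 7 windows with a peak in all 4 libraries had a median of 41 CpG dinucleotides and 73.7% GC, against 25 and 63.3% in all windows with a peak in all 4 libraries and 7 and 53% in every window. The second Mau2 window, which had no peak, held 1 CpG dinucleotide and 42.7% GC. The part of CpG content in the width of the peaks was not tested.

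**Figure D1:**
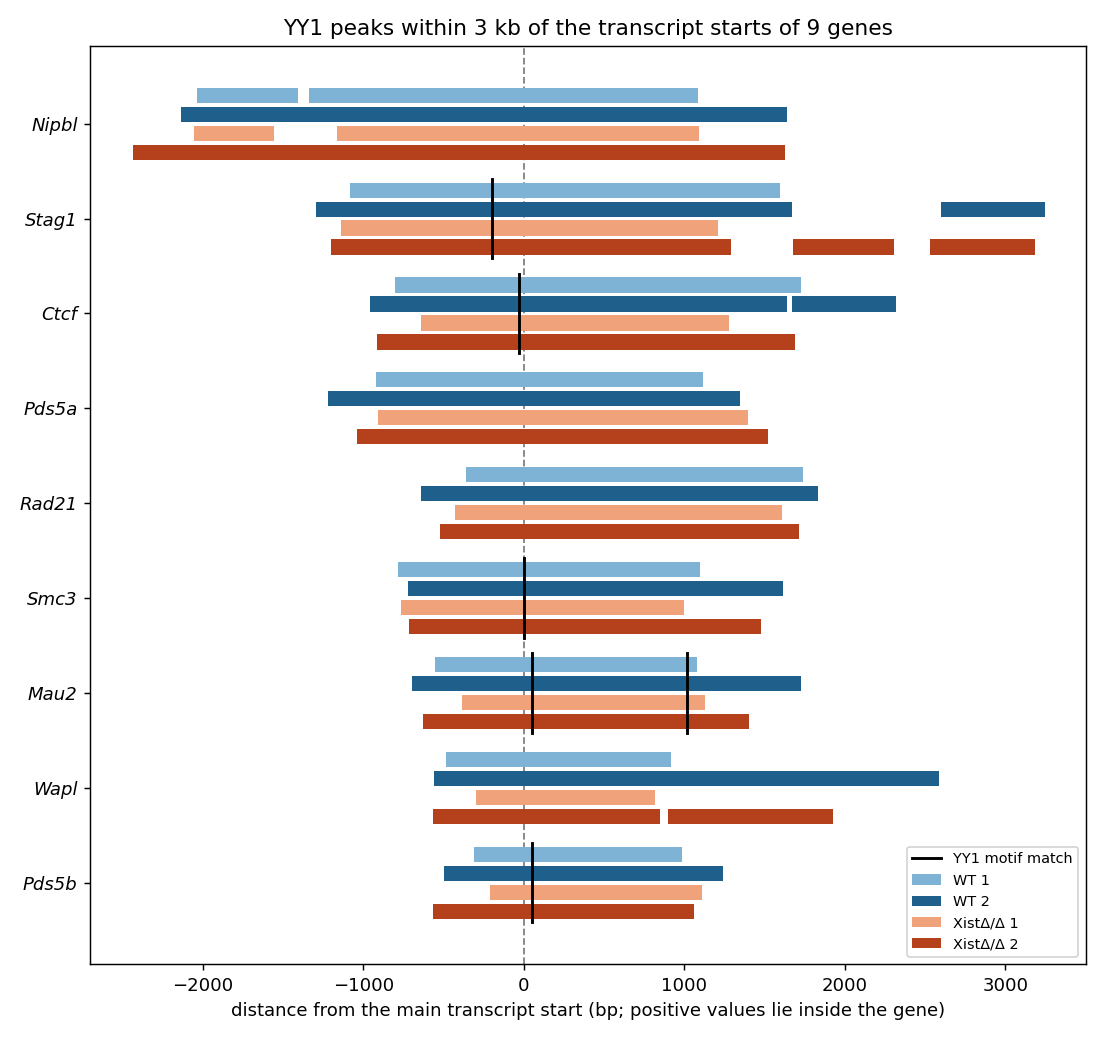
YY1 peaks within 3 kb of the transcript starts of the 9 genes, drawn to scale as bars against the distance in bp from the main transcript start (dashed line, transcription to the right), 1 row per library and genes ordered by mean width percentile. Black lines mark matches to AANATGGC within the stretch shared by all 4 libraries for the 7 genes searched. Every widest bar spans the main start, and small separate peaks appear beside the main one at Nipbl, Stag1, Ctcf and Wapl.

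Ctcf (ENSMUSG00000005698.15, plus strand of chromosome 8) encodes the insulator protein. Its promoter peak was 2528 bp wide in WT replicate 1, 2599 bp in WT replicate 2, 1914 bp in XistΔ/Δ replicate 1 and 2607 bp in XistΔ/Δ replicate 2. The width percentiles were 97.2, 95.1, 95.8 and 96.1 in the same order. The 4 values thus ranged from 95.1 to 97.2, and the genotypes overlapped. The mean was 96.2 ± 1.51 in WT and 96.0 ± 0.24 in XistΔ/Δ (SD, n = 2 each, exact permutation p = 1). Peaks of the 4 libraries merged into 1 region, chr8:105635620-105638898, of which 948 bp lay upstream of the gene, 697 bp in annotated exons and 1634 bp in introns. The peak ran 638 bp to 959 bp before the main start, the 5′-most start of the transcript that the annotation ranks first, and 1275 bp to 1727 bp after it. In WT replicate 2 a second peak of 647 bp followed the first after a gap of 33 bp. Transcript starts of Agrp, which encodes the agouti-related peptide, and of Gm5914 lie inside the same region, so these peaks cannot be assigned to Ctcf alone.

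Among the protein-coding genes with the pattern most like Ctcf, measured as the summed absolute difference in width percentile over the 4 libraries, Agrp came first with a difference of 0, since it shares the peak. Cnot1, which encodes the scaffold of the CCR4-NOT deadenylase, followed with 1.70. Lnx2 came next with 1.91.

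The 3 ring subunits among the 9 genes had mean percentiles of 92.7 to 97.2. Smc3 (ENSMUSG00000024974.10, plus strand of chromosome 19) encodes a subunit of the SMC pair at the core of the ring. Its promoter peak was 1879 bp in WT replicate 1, 2339 bp in WT replicate 2, 1761 bp in XistΔ/Δ replicate 1 and 2193 bp in XistΔ/Δ replicate 2. On the percentile scale these were 91.0, 93.0, 93.9 and 92.8. The ranks of the genotypes overlapped (mean 92.0 ± 1.42 in WT and 93.3 ± 0.82 in XistΔ/Δ, SD, n = 2 each, exact permutation p = 0.667). The merged region, chr19:53599616-53602013, held 782 bp upstream of the gene, 233 bp of exon and 1383 bp of intron.

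Rad21 (ENSMUSG00000022314.10, minus strand of chromosome 15) encodes the subunit that closes the ring and is cut when sister chromatids part. Widths were 2101 bp in WT replicate 1, 2474 bp in WT replicate 2, 2038 bp in XistΔ/Δ replicate 1 and 2235 bp in XistΔ/Δ replicate 2. The percentiles were 93.9, 94.3, 96.8 and 93.2, and the XistΔ/Δ libraries held both the highest and the lowest value. The region chr15:51989914-51992387 had 640 bp upstream of the gene, 477 bp in the 5′ UTR and 1357 bp in intron. The peak lay mostly inside the gene, with 360 bp to 640 bp before the main start and 1610 bp to 1833 bp after it.

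Stag1 (ENSMUSG00000037286.15, plus strand of chromosome 9) encodes one of the STAG subunits and spans 362 kb, the longest of the 9 genes. Its peak was 2676 bp in WT replicate 1, 2968 bp in WT replicate 2, 2348 bp in XistΔ/Δ replicate 1 and 2488 bp in XistΔ/Δ replicate 2. Measured in bp the genotypes did not overlap, with a mean of 2822 ± 206 bp in WT and 2418 ± 99.0 bp in XistΔ/Δ (SD, n = 2 each, exact permutation p = 0.333, the smallest that 2 against 2 libraries can give). The other 8 genes overlapped in bp, and the share of all genes without overlap in bp was not computed. Over the 7833 genes with a promoter peak in all 4 libraries, the median width difference was -126 bp within replicate 1 and -7 bp within replicate 2. As percentiles they did overlap, at 97.9, 97.1, 98.4 and 95.2. The annotation places 14 distinct transcript starts in Stag1, and the peak lay not at the first of them but at the main start, about which the region chr9:100642153-100645120 held 349 bp of UTR and 2619 bp of intron of longer transcripts. Further into the gene, a region at chr9:100645980-100646694, wholly intronic and 2210 bp from the nearest transcript start, was called in WT replicate 2 (645 bp) and XistΔ/Δ replicate 2 (653 bp). A region of 630 bp between it and the promoter peak, chr9:100645126-100645755, was called in XistΔ/Δ replicate 2 only. The extra peaks appeared in the deeper libraries alone, and whether the shallower ones lacked binding or depth there was not tested.

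The loader gene Nipbl had the widest peaks of the 9 genes on average and in both replicate 2 libraries. Stag1 was wider in both replicate 1 libraries, as were Ctcf in WT replicate 1 and Pds5a in XistΔ/Δ replicate 1. Nipbl (ENSMUSG00000022141.7, minus strand of chromosome 15) encodes the larger loader protein and is the gene most often mutated in Cornelia de Lange syndrome. Its promoter peak was 2425 bp in WT replicate 1, 3778 bp in WT replicate 2, 2255 bp in XistΔ/Δ replicate 1 and 4067 bp in XistΔ/Δ replicate 2, at percentiles 96.6, 99.0, 97.9 and 99.5. The replicate 2 libraries were higher than the replicate 1 libraries in both genotypes, and the genotypes overlapped (exact permutation p = 0.667). Part of that gap in width came with a split of the peak. In WT replicate 1 a second peak of 634 bp lay 67 bp farther upstream, and in XistΔ/Δ replicate 1 one of 501 bp lay 389 bp farther upstream, whereas the replicate 2 libraries had a single peak across the same ground. The region chr15:8442822-8446899 held 2436 bp upstream of the gene, 339 bp of UTR and 1303 bp of intron.

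Nipbl was also the one gene whose widest peak did not extend farther after the main start than before it. It was longer before the main start than after it in all 4 libraries (1166 bp to 2436 bp before, 1087 bp to 1641 bp after). The other 8 genes had the longer part after the start in all 4 libraries, which was so for 47.4% of genes with a promoter peak in all 4. This measure was chosen after the data were seen, and at Stag1 the peak lay inside the gene on either side of the main start. The single peak of any of the 9 genes beyond 3 kb of a transcript start was also in Nipbl: an intronic peak of 626 bp at chr15:8420841-8421466, 22997 bp from the start, in XistΔ/Δ replicate 2 only. No gene had such a distal region in at least 2 libraries (0 of 9, against 10.3% of genes with a promoter peak in all 4).

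Mau2 (ENSMUSG00000031858.16, minus strand of chromosome 8) encodes the partner of NIPBL in the loader and is the shortest of the 9 genes at 26.6 kb. Widths were 1632 bp in WT replicate 1, 2420 bp in WT replicate 2, 1514 bp in XistΔ/Δ replicate 1 and 2030 bp in XistΔ/Δ replicate 2. Their percentiles were 86.2, 93.9, 90.1 and 90.7, so both XistΔ/Δ values lay between the WT values. A transcript start of Sugp1, which encodes a protein with SURP and G-patch domains, lies in the same region, chr8:70041008-70043427. The peak was thus shared by both genes, as at Ctcf.

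**Figure D2:**
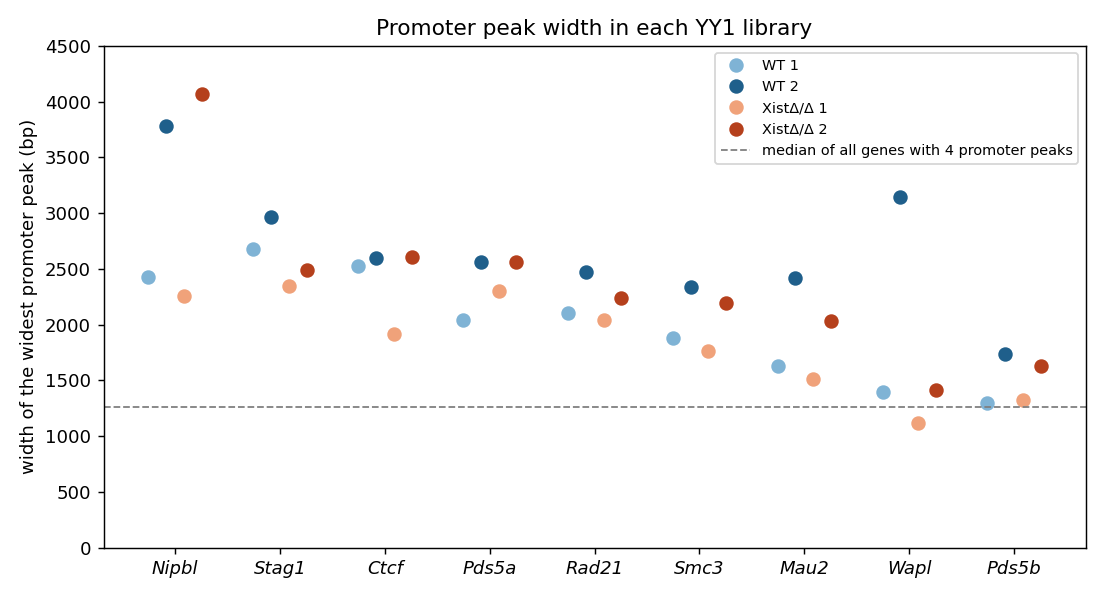
Width in bp of the widest YY1 peak within 3 kb of a transcript start (vertical axis, from 0) for the 9 genes, 1 point per library. The dashed line is the median over all genes with a promoter peak in all 4 libraries, 1258 bp, and the replicate 2 point lies above the replicate 1 point of the same genotype for every gene.

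The release factors covered the widest span of ranks. Pds5a (ENSMUSG00000029202.12, minus strand of chromosome 5) encodes a PDS5 protein that works with WAPL and also helps to keep cohesin acetylated. Its promoter peak was 2038 bp in WT replicate 1, 2565 bp in WT replicate 2, 2303 bp in XistΔ/Δ replicate 1 and 2558 bp in XistΔ/Δ replicate 2. The percentiles were 92.9, 94.9, 98.2 and 95.8, and both XistΔ/Δ values lay above both WT values. The mean was 93.9 ± 1.38 in WT and 97.0 ± 1.66 in XistΔ/Δ, a difference of 3.06 percentile points (SD, n = 2 each, exact permutation p = 0.333, the smallest possible). In bp the genotypes overlapped. The region was chr5:65696647-65699387, with 1114 bp upstream of the gene, 699 bp of exon and 928 bp of intron.

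Pds5b (ENSMUSG00000034021.15, plus strand of chromosome 5) encodes the second PDS5 protein. It had the narrowest peaks by mean rank, at 1296 bp in WT replicate 1, 1739 bp in WT replicate 2, 1323 bp in XistΔ/Δ replicate 1 and 1628 bp in XistΔ/Δ replicate 2. The percentiles were 75.1, 83.3, 84.7 and 83.0, with WT replicate 1 below the other libraries. XistΔ/Δ exceeded WT by 9.61 percentile points in replicate 1 and was 0.25 points lower in replicate 2, a difference of -0.25, so the direction did not hold within both. The region was chr5:150673175-150674978, with 215 bp of UTR and 1025 bp of intron.

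Wapl (ENSMUSG00000041408.18, plus strand of chromosome 14) encodes the release factor itself. Its widest promoter peak was 1399 bp in WT replicate 1, 3143 bp in WT replicate 2, 1114 bp in XistΔ/Δ replicate 1 and 1411 bp in XistΔ/Δ replicate 2. The percentiles were 79.1, 97.7, 75.6 and 76.5, with WT replicate 2 far above the other libraries and both XistΔ/Δ values below both WT values. The mean was 88.4 ± 13.1 in WT and 76.0 ± 0.65 in XistΔ/Δ, a difference of -12.4 percentile points (SD, n = 2 each, exact permutation p = 0.333, the smallest possible). The difference was -3.53 within replicate 1 and -21.2 within replicate 2, and without WT replicate 2 it was -3.06. The peak of WT replicate 2 covered 2586 bp after the main start. In XistΔ/Δ replicate 2 part of the same ground held 2 peaks, of 1411 bp and 1027 bp, separated by 50 bp. The second of them ended 1923 bp after the main start, short of the end of the WT replicate 2 peak. When peaks less than 100 bp apart were joined, an alternative chosen after seeing the data, the difference was -2.96 (exact permutation p = 0.667) and the genotypes overlapped. The region chr14:34673364-34676514 also holds a transcript start of the long noncoding RNA gene 5830448L01Rik.

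Between genotypes, the question was whether any of these binding sites differed in cells without Xist. No region of the 9 genes called in at least 2 libraries was present in both libraries of 1 genotype and absent from both of the other (0 of 10 regions, against 1.69% of 14168 such regions). Of these 10 regions, 9 were the promoter regions called in all 4 libraries, and the remaining region, at Stag1, was called in both replicate 2 libraries. The count of 0 thus follows from calls given above and says nothing further about these genes. The width percentile was higher in XistΔ/Δ within both replicate numbers for 2 of 9 genes, Nipbl and Pds5a, against 35.8% of genes with a promoter peak in all 4 libraries. It was lower within both for 1 of 9, Wapl, against 17.2%. For the other 6 genes the direction was mixed. The percentiles of the genotypes did not overlap for Pds5a (higher, 1 of 9 against 15.5%) and Wapl (lower, 1 of 9 against 6.15%). With the place in the deposited list as the rank, the genotypes overlapped at both genes, while Stag1 and Pds5b did not overlap (both higher in XistΔ/Δ). With ranks among consensus regions, those called in at least 2 libraries, Pds5a overlapped as well. With the summed width of a gene's promoter peaks, or with peaks less than 100 bp apart joined, Wapl overlapped. Ctcf did not overlap under either choice (lower in XistΔ/Δ), and Nipbl did not with the summed width (higher). For these other choices no share over all genes was computed. With 2 against 2 libraries, the exact permutation test cannot give a p below 0.333, so no difference for a single gene could pass 0.05.

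The differences were small in most of the genes. The median size of the difference between genotypes was 2.97 percentile points within replicate 1 and 1.05 within replicate 2 for the 9 genes, against 9.55 and 4.57 for all 7833 genes. Ranks near the top of the scale have less room to move, so these medians were not compared by a test. In bp, 7 of 9 peaks were narrower in XistΔ/Δ within replicate 1 (66.1% of the 7833 genes) and 7 of 9 within replicate 2 (51.8%). In both they numbered 5 of 9 (35.0%). The median width difference was -118 bp within replicate 1 and -146 bp within replicate 2 for the 9 genes, and -126 bp and -7 bp for all 7833 genes. Depth moved with width as well: the peak was wider in replicate 2 than in replicate 1 in both genotypes for 9 of 9 genes, against 90.2% of the 7833 genes.

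**Figure D3:**
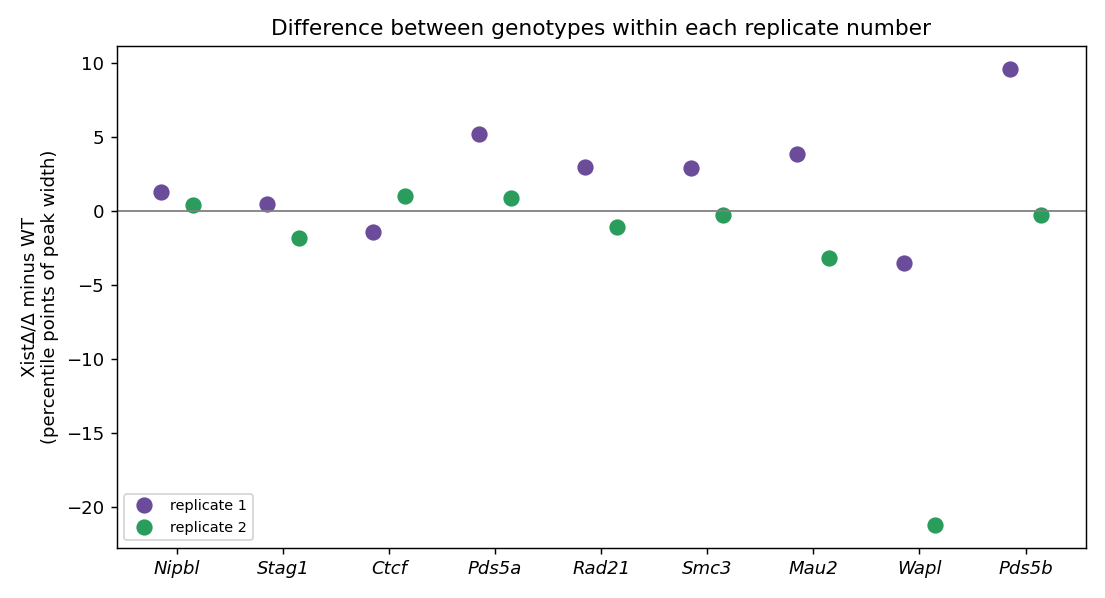
Difference in width percentile of the widest promoter peak between genotypes (XistΔ/Δ minus WT, in percentile points) within replicate 1 and within replicate 2, 1 pair of points per gene. Only Nipbl and Pds5a lie above 0 in both and only Wapl lies below 0 in both, with its largest value, -21.2, in replicate 2.

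Ranked by the mean of their 4 percentiles, the genes stood in the order Nipbl (98.3), Stag1 (97.2), Ctcf (96.1), Pds5a (95.5), Rad21 (94.6), Smc3 (92.7), Mau2 (90.2), Wapl (82.2) and Pds5b (81.5). Most neighbours in this order were not separated in every library. Rad21 was above Smc3 in 4 of 4 libraries, and Nipbl above Stag1 and Wapl above Pds5b in 2 of 4 each. The other neighbours kept their order in 3 of 4. The 4 libraries of a gene spread by an SD of 0.89 (Ctcf) to 10.4 percentile points (Wapl). The order also depended on the measure. With the place in the deposited list as the rank, Ctcf stood highest in all 4 libraries (98.7 to 99.1). Nipbl (90.8 to 97.6) then stood below Rad21 and Smc3 in all 4, and Pds5a (83.7 to 90.5) below Pds5b in all 4.

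Other genes of the machinery were not all alike. Of 10 further cohesin genes, 7 had a promoter peak in all 4 libraries, and the median of their mean percentiles was 75.5. For this list and those below, the share over all protein-coding genes was 36.0%. The median over the 7833 genes with such a peak was 69.4. The missing 3 were Smc1a, which encodes the partner of SMC3 in the ring, Pttg1 (securin) and Espl1 (separase). Each of them had a peak in both replicate 2 libraries and in neither replicate 1 library, a pattern seen in 4.37% of protein-coding genes and in none of the 9. Smc1a, on the X chromosome, had peaks of 854 bp in WT replicate 2 and 810 bp in XistΔ/Δ replicate 2, at percentiles 43.7 and 46.0. Pttg1 had peaks of 1019 bp and 809 bp in the same libraries, and Espl1 of 501 bp and 628 bp.

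Stag2, the X-linked counterpart of Stag1, had broader peaks than any of the 9 genes on average. Its widths were 3737 bp in WT replicate 1, 3819 bp in WT replicate 2, 3664 bp in XistΔ/Δ replicate 1 and 3654 bp in XistΔ/Δ replicate 2, and its percentiles were 99.6, 99.1, 99.7 and 99.1. Hdac8, an X-linked gene that encodes the deacetylase of SMC3, lay at the other end, with 501 bp, 630 bp, 501 bp and 754 bp at percentiles 9.76, 22.4, 12.0 and 34.9. The 3 X-linked genes thus ranged from near the bottom to the top of the scale, and none was present in 1 genotype only.

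The germline forms of cohesin and of CTCF were almost without peaks: 0 of 5 had a promoter peak in all 4 libraries, against 36.0% of protein-coding genes. A promoter peak in at least 1 library was found for 11022 of the 21755 protein-coding genes, so many other genes lacked one too. Smc1b, Rad21l, Rec8 and Ctcfl had none in any library. Stag3 had a peak of 882 bp in WT replicate 2, 764 bp in XistΔ/Δ replicate 1 and 884 bp in XistΔ/Δ replicate 2, and none in WT replicate 1.

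Condensin, the SMC complex that compacts mitotic chromosomes, had a promoter peak in all 4 libraries at 5 of 8 genes, with a median percentile of 84.9. Ncapg2 had a peak in the replicate 2 libraries only (628 bp in WT and 1058 bp in XistΔ/Δ). Ncaph and Ncapg lacked a peak in WT replicate 1 and had one of 501 bp in XistΔ/Δ replicate 1. In the replicate 2 libraries Ncaph had 1034 bp in WT and 1174 bp in XistΔ/Δ, and Ncapg 1193 bp and 1153 bp. The SMC5/6 complex, which acts in DNA repair, had peaks at 6 of 6 genes in all 4 libraries, with a median percentile of 52.4. No test was made between these lists, and for genes in dense regions the widest peak within 3 kb may belong to a neighbour.

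**Figure D4:**
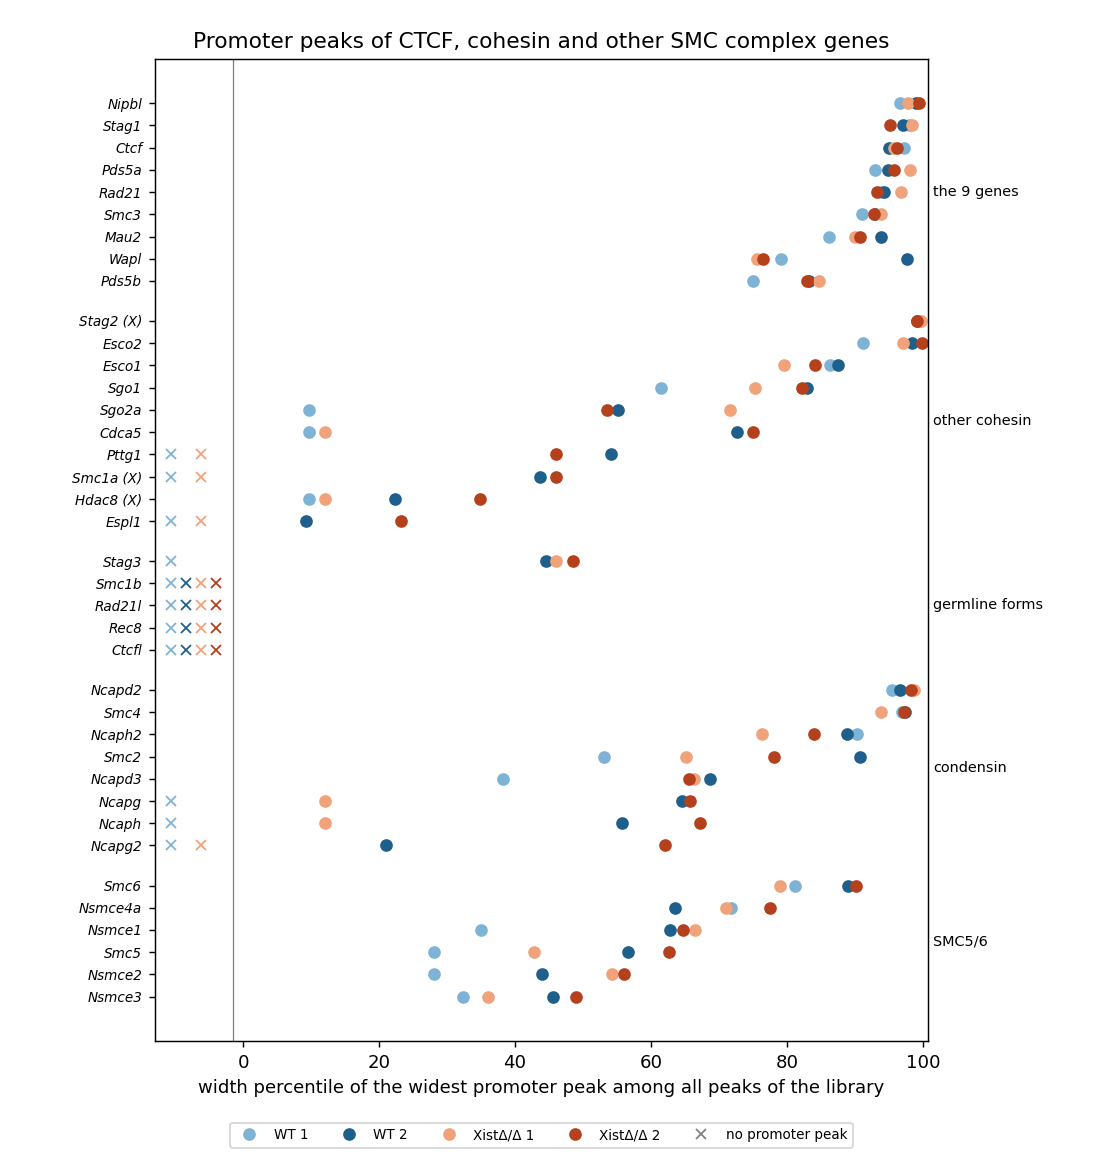
Width percentile of the widest promoter peak among all peaks of its library (horizontal axis) for the 9 genes and 4 further lists, 1 point per library, genes in each list ordered by their mean and X-linked genes marked (X). Crosses left of the line stand for libraries without a promoter peak; the 9 genes lie at 75.1 or above, while the germline forms are mostly crosses.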

How the data were processed

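YY1 ChIP-seq of Lin− cells was used, 2 libraries per genotype, out of 12 samples in the series. The 8 samples of histone marks were not used here. By the study's methods, the authors digested chromatin with micrococcal nuclease, trimmed reads with TrimGalore, aligned them to mm10 with Bowtie2 2.3.5.1, removed reads of alignment quality under 30 with SAMtools 1.10 as well as duplicates, and called peaks with HOMER findPeaks. Per the file headers, each library was called on its own, with a peak size of 500 bp and a minimum distance between peaks of 500 bp. Peaks were stitched into regions, with a false discovery rate of 0.001, a local enrichment of 4 fold and no input. Listed regions could still lie closer together than 500 bp, such as 33 bp apart at Ctcf in WT replicate 2. The deposited score is 1 for every peak and was not used. Width in bp came from each peak's deposited start and end.

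Widths were turned into percentiles within a library, with ties at their mean. Peaks of different libraries that overlapped by 1 bp were merged, and regions called in at least 2 of 4 libraries were counted. Genotypes were compared by two-sided exact permutation of the 4 libraries (Python 3.11.15, NumPy 2.4.6). The scripts were tested on simulated peaks. Members, lists and thresholds were chosen with earlier results of these data known, and the measure of distance from the main start and the joining of peaks less than 100 bp apart were chosen after the data were seen. Named genes were the 9 members, X-linked list genes and list genes without a peak in all 4 libraries, genes whose starts lie in a member's region, and the 3 genes most like Ctcf. Peak lists allow no check of cell type markers. Same-numbered libraries of both genotypes share a directory number of unstated meaning in the headers, and values within each number are given. Replicate numbers in the headers differ from those of the labels, and the labels were used.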

Additional observations from a re-analysis of the deposited data

How the results depend on the processing

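A promoter peak in all libraries kept was found for 9 of 9 genes under each alternative tried (a 1 kb window, protein-coding transcripts only, lists of equal length, peaks wider than 501 bp, and leaving out each library). Leaving out a library could not lower this count. Each widest peak spanned the main start, was at least 1114 bp wide and stood within the first 9553 places of its list. The other alternatives thus left these peaks in place, and the unchanged count says nothing further about these genes. With a 1 kb window, 1 gene, Stag1, had a distal region in at least 2 libraries, against 0 with 3 kb. Leaving out each library, the number of regions in 1 genotype only ranged from 0 to 2. The 2, at Stag1 and Nipbl, came without XistΔ/Δ replicate 1, when a single XistΔ/Δ library remained. The number of genes higher in XistΔ/Δ ranged from 3 to 7 and the number lower from 2 to 6, since fewer comparisons then had to agree. The number higher was 4 with the order of the list as the rank, and 1 with peaks less than 100 bp apart joined. The number lower was 2 with the summed width, and 2 with joined peaks. Genes whose genotypes did not overlap numbered 1 (Wapl) with ranks among consensus regions and 1 (Stag1) with log2 width, against 2. They numbered 3 with the summed width: Ctcf (lower in XistΔ/Δ), Nipbl and Pds5a (each higher). With the order of the list they numbered 2, but neither was Pds5a or Wapl. With joined peaks they also numbered 2, Ctcf (lower) and Pds5a (higher). No share over all genes was computed for the counts under these alternatives. They describe the 9 genes and cannot show whether other genes would give the same. With the replicate block, 3 genes (Nipbl, Pds5a and Wapl) had the same direction within both numbers, each at an exact permutation p of 0.5, the smallest that 2 pairs allow, so neither fit could pass 0.05. With 2 pairs, it could not be shown whether the numbers pair the samples. The longer motif was found in 0 windows. The cause of these changes was not tested, apart from those that follow from fewer libraries. With joined peaks the difference at Ctcf was -1.81 and at Nipbl -0.45. In log2 width, the difference was -0.09 at Smc3, -0.10 at Rad21, -0.18 at Mau2 and -0.03 at Pds5b, where the percentile difference was above 0. Weaker sites may be missed in the replicate 1 libraries, the shallower ones, and width is a stand-in for strength that no count of tags per peak could check.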
